A study of Mus musculus with 3 samples.

Results

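Endothelial nuclei were the 501 of 14662 nuclei of the mouse lumbar spinal cord that the deposited annotation of refined cell types calls endothelial. They were taken by that annotation alone, and pools A, B and C held 160, 176 and 165 of them. The cords came from 12 mice aged 90 days. The 6 SOD1G93A mice (B6.Cg-Tg(SOD1G93A)1Gur/J, 3 female and 3 male) carry many copies of a human SOD1 gene with an ALS mutation in all their cells, and the 6 WT mice (C57BL/6J, 3 female and 3 male) were their littermates. Nuclei of 1 mouse of each sex and genotype were marked with hashtag antibodies and run together as a pool, called a batch in the labels. The mice were perfused with buffer, and the cord was frozen before nuclei were isolated. The comparison of genotypes asks which endothelial genes differ at an age that the study places around the first symptoms.

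Vessels of the spinal cord are lined by endothelial cells that are sealed by tight junctions and carry glucose, amino acids and other nutrients inward through transporters, which together make the blood-spinal cord barrier. Pericytes, the mural cells of capillaries, sit on the outside of this tube in a shared basement membrane and are recruited through the receptor PDGFRB by PDGF-B from the endothelium. Arteries, capillaries and veins differ in the genes of their endothelium, with Notch signalling on the arterial side and the transcription factor NR2F2 on the venous side.

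The sequences below show the region in front of Flt1 and Cldn5, known markers of endothelium, and of Vtn, a pericyte gene that helped to sort the nuclei into kinds. They are the 250 bases before the start site, read on the strand of the gene from the RefSeq promoter table (build GRCm38.p6). Capitals mark AGGAAG or its reverse complement CTTCCT, a core that ETS factors such as ERG and FLI1 of endothelial cells can bind, searched on both strands.
Flt1, chr5:147726012-147726261, minus strand: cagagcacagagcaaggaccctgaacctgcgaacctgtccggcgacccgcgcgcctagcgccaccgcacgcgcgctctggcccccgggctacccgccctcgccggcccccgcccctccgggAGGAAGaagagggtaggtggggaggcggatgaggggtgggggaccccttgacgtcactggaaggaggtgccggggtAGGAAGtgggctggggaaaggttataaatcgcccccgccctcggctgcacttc
Cldn5, chr16:18776597-18776846, plus strand: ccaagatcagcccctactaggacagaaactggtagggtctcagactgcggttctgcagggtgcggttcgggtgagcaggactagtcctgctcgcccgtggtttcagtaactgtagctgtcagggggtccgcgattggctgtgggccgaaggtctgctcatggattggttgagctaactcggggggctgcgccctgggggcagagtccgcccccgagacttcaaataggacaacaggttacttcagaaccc
Vtn, chr11:78498870-78499119, plus strand: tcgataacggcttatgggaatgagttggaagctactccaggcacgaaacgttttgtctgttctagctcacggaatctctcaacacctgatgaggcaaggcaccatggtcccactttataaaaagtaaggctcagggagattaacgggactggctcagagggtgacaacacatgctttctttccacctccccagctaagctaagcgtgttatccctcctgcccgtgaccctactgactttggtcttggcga

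These letters stood 2 times in the Flt1 window and 0 times in those of Cldn5 and Vtn. Of the 19 genes of a list of endothelial identity, 17 had a promoter in the table and 10 of these held the motif, or 58.8%, against 29.5% of all 32851 promoters of the same length. Of the 15 genes of the pericyte list, 12 had a promoter and 2 held it. A match is a description of the letters and not a bound site. The motif was chosen after values were seen, the shares of the lists rest on few promoters, and their difference was not tested.

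Flt1 and Cldn5 were detected in nearly every nucleus. The study named its cell types partly by marker genes, so this detection is a description and no check of the label. Flt1, a receptor for VEGF, was detected in 499 of 501 nuclei, and Cldn5, the main claudin of tight junctions, in 481. Flt1 was detected in 2.99% of neurons, at a median of 12864.5 UMIs per nucleus against 6963 in endothelial nuclei, in 19.3% of microglia (median 46927 UMIs) and in 28.3% of fibroblasts (median 3214 UMIs). Levels were computed as CPM, the UMIs of a gene per 1000000 UMIs summed per mouse. Flt1 averaged 4716 ± 572 CPM (SD, n = 12 mice) and Cldn5 1367 ± 271 CPM, while the highest means in another cell type were 75.7 CPM for Flt1 in fibroblasts and 12.4 CPM for Cldn5 in Schwann and meningeal nuclei. Among genes with at least 200 UMIs in these nuclei, the 15 with the largest ratio to the next cell type began with Robo4, a guidance receptor of the endothelium, at 117 ± 20.2 CPM against 0.269 CPM in astrocytes. They included the transcription factors Tbx1 (74.6 ± 17.2 CPM) and Tbx3 (128 ± 16.2 CPM), the adhesion receptor Adgrl4 (2464 ± 236 CPM), the adhesion molecule Icam2 (133 ± 49.8 CPM), the phosphatase Ptprb (1239 ± 162 CPM) and the organic anion carrier Slco1a4 (3755 ± 818 CPM). These ratios describe the clusters from which the type was named and are not a test. By cluster, 492 of the 501 nuclei lay in 1 Seurat cluster. The nuclei of a mouse numbered 21 to 65 and held 180221 to 529083 UMIs, so counting error limits genes of low level.

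The pericyte part was defined as nuclei with at least 1 UMI of Pdgfrb and none of Flt1, and no nucleus met this rule. It held 0 of 501 nuclei, which allows a share of up to 0.599% by the limit of 3 counts and 0.734% by the exact 95% binomial interval, for counting error only. Pdgfrb, the PDGF receptor of mural cells, was detected in 263 nuclei (52.5%, exact 95% binomial interval 48.0 to 56.9%), and all of them also had Flt1, with 2 to 224 Flt1 UMIs and a median of 47. Another 236 nuclei had Flt1 without Pdgfrb, and 2 nuclei with a median of 831 UMIs had neither. Pdgfrb was detected in 1.06% of neurons (median 12864.5 UMIs), 5.83% of microglia (median 46927 UMIs), 12.9% of astrocytes (median 5338 UMIs) and 30.4% of fibroblasts (median 3214 UMIs). The part remained empty when at least 2 UMIs of Pdgfrb were asked for, and when each nucleus was thinned to 3500 UMIs. Asking only for more UMIs of Pdgfrb than of Flt1 gave 1 nucleus. The mural side of the label therefore had no nuclei under this rule, and nuclei with Pdgfrb are called by that gene here.

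Pericyte genes were nevertheless abundant, and they marked a large share of the nuclei that also expressed endothelial genes. Each nucleus was scored by how many of 6 pericyte markers had a UMI: Pdgfrb, the potassium channel subunits Kcnj8 and Abcc9, the G protein regulator Rgs5, the matrix protein Vtn and the receptor Notch3. The counts fell into a low and a high range, with 113 nuclei at 1 marker, 29 nuclei at 3 and 144 nuclei at all 6. In all, 185 nuclei (36.9%) had at most 2 of the markers and 287 (57.3%) had at least 4. After thinning 418 nuclei to 3500 UMIs, which left out 83 shallower nuclei (35 WT and 48 SOD1G93A), 153 had at most 2, 50 had 3 and 215 (51.4%) had at least 4. The limits of 2 and 4 markers were set after the distribution was seen, so that values of these ranges are descriptions without a test.

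**Figure D1:**
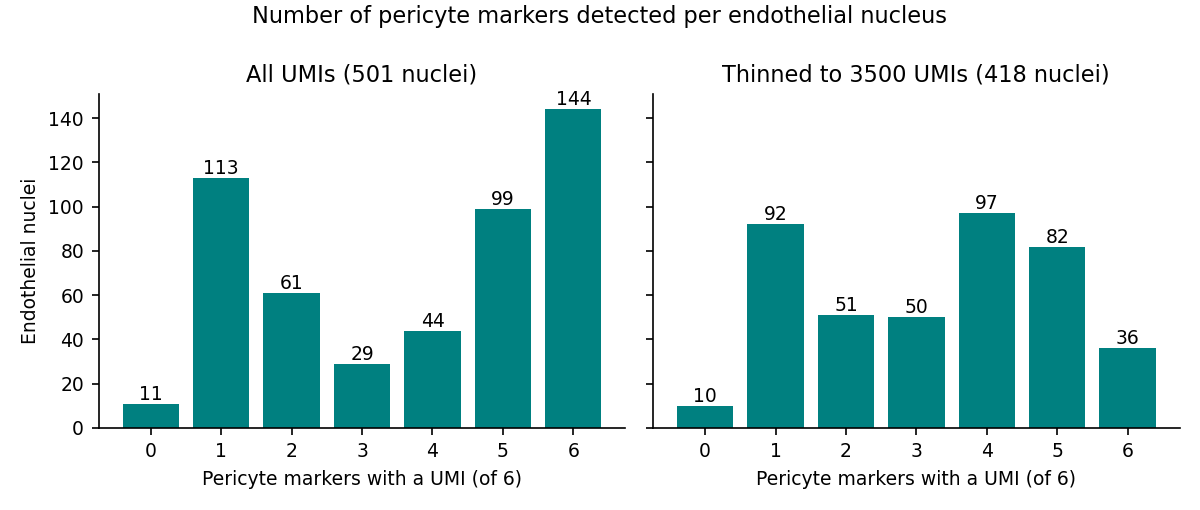
The number of 6 pericyte markers with at least 1 UMI (horizontal axis) is plotted against the number of endothelial nuclei, with all UMIs on the left and with each nucleus thinned to 3500 UMIs on the right. Few nuclei stood at 3 markers (29) between those at 1 (113) and those at 6 (144), and after thinning the low and the high range remained, at 92 nuclei with 1 marker and 97 with 4.

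Endothelial genes were at about the same level in both ranges. Nuclei with at least 4 pericyte markers had a median of 45.3 Flt1 and 13.6 Cldn5 UMIs per 10000, and nuclei with at most 2 had 51.3 and 11.7. The lowest Flt1 count of a nucleus with at least 4 pericyte markers was 3 UMIs. The list of 19 endothelial identity genes summed to 18547 CPM in the former and 18620.3 CPM in the latter, and 0 of the 19 differed by over 2-fold, against 4.28% of 9195 genes with at least 50 UMIs that were over 2-fold higher and 4.71% that were over 2-fold lower. The 19 barrier transporters summed to 17317 and 18009 CPM. The same nuclei differed in the mural genes that had sorted them, by construction for the 6 markers. Flt1 stood at 4134 to 5261 CPM per mouse (median 4632) in nuclei with at least 4 markers and at 1507 to 6549 CPM (median 4721) in those with at most 2, which overlapped. Pdgfrb stood at 188 to 325 CPM (median 248) in nuclei with at least 4 markers and at 0 to 18.4 CPM (median 0) in those with at most 2. Vtn stood at 876 to 2255 CPM (median 1562) and 0 to 207 CPM (median 49.7). Rgs5 differed least among the 6 markers, with 3206 to 4592 CPM (median 3824) against 691 to 3204 CPM (median 2346), and nuclei without the other markers had it too.

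Genes that the score did not use differed between these nuclei too, and those with large ratios given next were named after their values were seen. Atp13a5, a transporter of brain pericytes, summed to 615 against 16.4 CPM, a 37.5-fold ratio, the amino acid carrier Slc38a11 to 175 against 4.82 CPM, the proline carrier Slc6a20a to 234 against 7.71 CPM, the cytokine Il34 to 142 against 4.82 CPM and the calcification inhibitor Mgp to 395 against 14.5 CPM. Each was higher in nuclei with at least 4 markers in 12 of 12 mice. They were picked from the largest ratios, so this count adds no separate evidence, and the share of all genes at 12 of 12 is not given. Of the pericyte list, 12 of 14 genes with at least 50 UMIs (85.7%) were over 2-fold higher, of which 5 are scored markers. The arterial list had 5 of 14 (35.7%), Mgp among them, and the venous list 1 of 7 (14.3%). Of all 9195 genes with at least 50 UMIs, 4.28% were over 2-fold higher. The nuclei were split by pericyte markers, so genes expressed along with these follow the split and the counts are not a test.

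Depth and genes of other cell types also moved with the score, and their part in it was not tested. Nuclei with at least 4 markers had a median of 9949 UMIs and 3868 genes, and those with at most 2 had 4753 UMIs and 2365 genes, and the former was higher in 12 of 12 mice. Among the thinned nuclei, the medians before thinning were 9288 and 6912 UMIs. Summed over 4 markers each, neuronal genes stood at 245 CPM in nuclei with at least 4 pericyte markers and 548 CPM in those with at most 2, oligodendrocyte genes at 354 and 912 CPM, and astrocyte genes at 412 and 567 CPM. Others stood higher in the nuclei with at least 4 pericyte markers. Fibroblast genes summed to 55.4 against 7.71 CPM, smooth muscle genes to 58.4 against 13.5 CPM, and 3 red blood cell genes to 197 against 15.4 CPM. Single nuclei and mice carried part of these sums, with 316 of the 386 UMIs of the globin gene Hbb-bs in 1 nucleus, 324 in the male SOD1G93A mouse of pool C, and 64 of 79 Acta2 UMIs in the pool A SOD1G93A male. The median mitochondrial share was 3.22% and 2.75%. The authors discarded nuclei with an ambiguous hashtag signal, which removes doublets of several mice, and doublets within 1 mouse were not marked here.

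Nuclei with pericyte markers and no Flt1 were few in the rest of the cord, and most common among the fibroblasts. Of the 14161 nuclei of other types, 27 (0.191%) had at least 4 pericyte markers, and 18 of these had no Flt1 UMI, among them 7 of the 9 in fibroblasts, a type of 46 nuclei in all (19.6% with at least 4 markers). Fibroblasts had a mean of 606 CPM of Atp13a5 against 474 ± 152 CPM in endothelial nuclei (SD, n = 12), and 367 CPM of Abcc9 against 389 ± 84.5 CPM. In endothelial nuclei 0 of 287 such nuclei lacked Flt1, and 279 of the 287 had at least 4 of 6 endothelial markers. The mean Pdgfrb level of fibroblasts, 198 CPM, was near that of endothelial nuclei, 185 ± 30.0 CPM (SD, n = 12), and rested on 27 UMIs in fibroblasts.

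**Figure D2:**
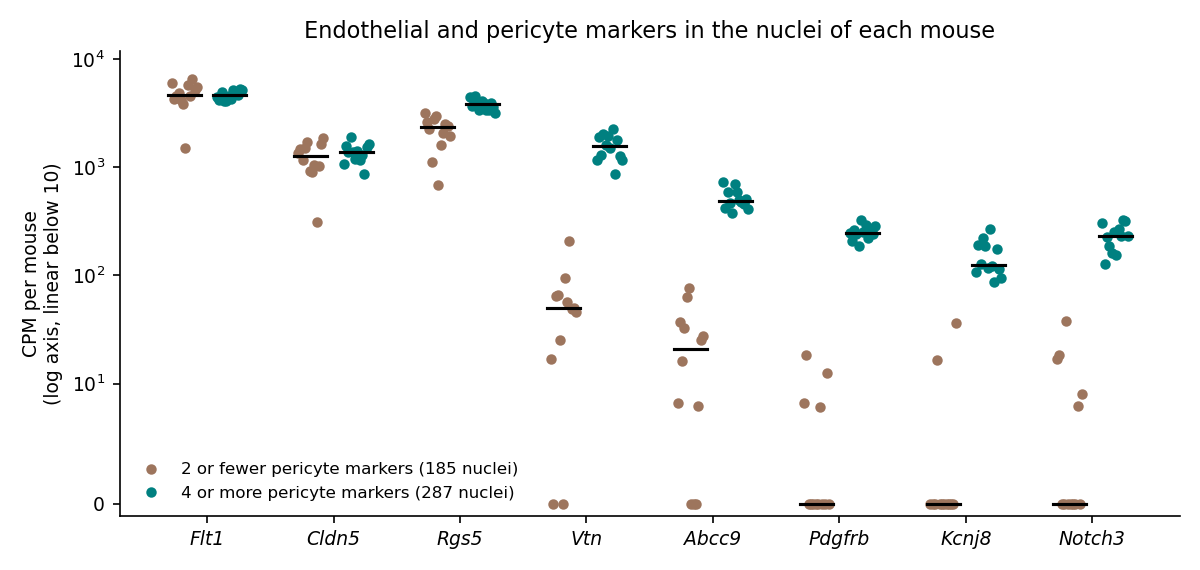
Each point is the CPM (log axis, linear below 10) of a marker summed over the nuclei of 1 mouse with at most 2 (brown) or at least 4 (teal) pericyte markers, and black lines are medians over 12 mice. Flt1 and Cldn5 overlapped between both kinds, whereas Vtn, Abcc9, Pdgfrb, Kcnj8 and Notch3 were separate in the 12 mice, which the choice of nuclei fixed.

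Defining markers of smooth muscle rested on few nuclei, while other genes of its list were common. Acta2, the actin of smooth muscle, had 79 UMIs in 17 nuclei, 64 of them (81.0%) in the male SOD1G93A mouse of pool A, where single nuclei held 26 and 20. Myh11, the smooth muscle myosin, had 119 UMIs in 70 nuclei. Summed over 4 smooth muscle markers, 11 mice stood at 17.5 to 58.8 CPM and that mouse at 291 CPM. Its 4 fibroblast markers also summed highest, to 101 CPM against 17.6 to 81.3 CPM in the others. The list of 10 smooth muscle genes had a UMI in 315 of 501 nuclei (62.9%), mostly through Myl9, a myosin light chain, with 494 UMIs, and Mylk, the kinase of that chain, with 452 UMIs. It summed to 344 CPM in nuclei with at least 4 pericyte markers and 71.3 CPM in those with at most 2. The 4 members with at least 50 UMIs were each over 2-fold higher in the former, against 4.28% of all 9195 such genes.

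UMIs of arterial and of venous genes were often found in the same nucleus, which does not show that a nucleus expressed both programmes. Among the 418 nuclei thinned to 3500 UMIs, 286 (68.4%) had UMIs of both lists, 85 (20.3%) of the arterial list only, 31 (7.42%) of the venous list only and 16 of neither. These shares had no background taken off. The arterial list summed to a mean of 807 CPM in Schwann and meningeal nuclei and 200.1 CPM in neurons. Most of both sums came from its member Stmn2, a gene best known from neurons, at 680 and 140 CPM. The venous list summed to 539 CPM in fibroblasts and 24.6 CPM in neurons. Mgp gave 410 of the thinned arterial UMIs, the gene that stood 27.3-fold higher in nuclei with at least 4 pericyte markers. Over these nuclei the summed arterial and venous UMIs had a Pearson r of −0.0622 and a Spearman rho of 0.0230, as a description across nuclei of shared libraries. The list sums stood at 790.3 to 1311 CPM per mouse for arterial and 482 to 1633 CPM for venous genes, and the capillary list, with the lipid carrier Mfsd2a, the transferrin receptor Tfrc and the amino acid carrier Slc7a5, at 3017 to 4661 CPM.

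Within a list, some genes rose together across nuclei and others did not. Sema3g, a semaphorin of arteries, had a correlation of 0.326 with the sum of the other arterial genes and −0.0724 with the venous sum, and Vegfc, a growth factor of arterial endothelium, of 0.324 and −0.0680. On the venous side, the leukocyte adhesion molecules Vcam1 and Icam1 had correlations of 0.566 and 0.483 with the sum of the other venous genes, and the interleukin receptor Il1r1 of 0.378. Nr2f2, the venous transcription factor, reached 0.138. Several of these correlations rest on few of the 418 nuclei, with UMIs in 21 for Vcam1, 23 for Vegfc, 32 for Icam1 and 56 for Sema3g. Il1r1 had UMIs in 101 and Nr2f2 in 137. Gja5, an arterial connexin, and Selp and Sele, the selectins of activated venules, had 0 UMIs in the thinned nuclei.

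The adhesion molecules rested on few nuclei. From here on, CPM of single genes refer to the UMIs of the genes tested between groups, scaled by TMMwsp, while sums over lists refer to the plain totals. Icam1 ranged from 9.74 to 37.4 CPM in WT (median 15.6) and from 8.05 to 369 CPM in SOD1G93A mice (median 16.5), and the groups overlapped. The male SOD1G93A mouse of pool A, at 369 CPM, held 167 of all 255 Icam1 UMIs, and 6 of the 8 nuclei with 5 or more of them. Vcam1, named after its values were seen, was distributed alike, with 223 of 319 UMIs in that mouse and 136 in 1 nucleus.

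The share of endothelial nuclei was not called different between genotypes. They made up 1.77 to 4.60% of the nuclei of WT mice (median 2.73%, mean 3.11% ± 1.19 SD, n = 6) and 2.98 to 6.53% of those of SOD1G93A mice (median 3.88%, mean 4.34% ± 1.26 SD, n = 6), so that the ranges overlapped. The log2 fold change was 0.56, with an FDR of 0.308 over the 10 cell types in edgeR's quasi-likelihood test with a pool term. It was 0.28 without the pool B SOD1G93A female, and 0.80 with TMM factors (FDR = 0.0565 in edgeR). The share was higher in SOD1G93A in 4 of 6 pairs of the same sex and pool, and the mean difference of 1.23 percentage points had p = 0.156 in a two-sided exact permutation test within pairs, whose smallest p is 0.0312. Fewer nuclei of another type in the tissue or in the preparation raise this share in the same way, and these cannot be told apart.

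Neither did Pdgfrb or the pericyte score separate the genotypes. Nuclei with Pdgfrb made up 44.7 to 63.2% in WT (mean 54.8% ± 7.36 SD, n = 6) and 33.9 to 72.0% in SOD1G93A mice (mean 53.0% ± 14.1 SD, n = 6). After thinning, nuclei with at least 4 pericyte markers were 47.4 to 61.9% of nuclei in WT (mean 52.1% ± 5.16 SD, n = 6) and 45.5 to 68.2% in SOD1G93A mice (mean 54.2% ± 8.88 SD, n = 6). By pool, without thinning, the mean was 53.3% in pool A, 56.7% in pool B and 66.5% in pool C (n = 4 mice each). After thinning, these means were 51.1%, 51.1% and 57.3%. Without thinning, the widest spread was among SOD1G93A females, at 39.3% in pool B and 84.0% in pool C. The median UMIs of a nucleus were 4510.5 and 11160 in these mice, and after thinning they stood at 47.2% and 68.2%.

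**Figure D3:**
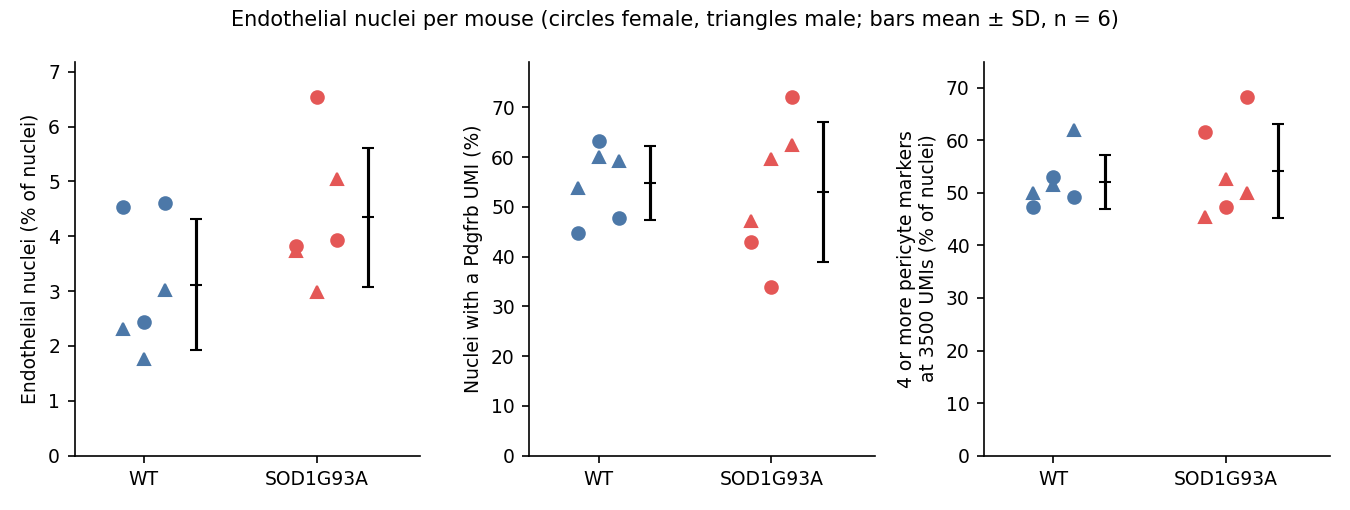
Each point is 1 mouse (circles female, triangles male), with bars for the mean ± SD of 6 mice, for the endothelial percent of nuclei, the percent of endothelial nuclei with a UMI of Pdgfrb, and the percent with at least 4 pericyte markers after thinning to 3500 UMIs. WT and SOD1G93A ranges overlapped in each panel, with means of 3.11% and 4.34% in the first.

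Genotype differences of expression were tested by limma-voom on UMIs summed per mouse, with sex and genotype groups and the pool as terms, with FDR over 7637 genes and a threshold of 0.1. The Sod1 row followed the genotype labels. Sod1 stood at 107 to 209 CPM in WT mice (median 135) and at 1334 to 2497 CPM in SOD1G93A mice (median 1919), without overlap. The RNA of the mouse gene and of the human transgene cannot be told apart on this row. Sod1 was the only gene that passed (1 gene, 0.0131% of 7637), and 334 genes had an unadjusted p under 0.05 (4.37%). Leaving out 1 mouse raised the count to 5 genes without the pool A female WT mouse, among them Rtl4, to 4 without the pool A male WT mouse and to 2 without the pool C female WT mouse, Sod1 in each case among them. Counted by ranges, the 6 SOD1G93A mice lay above the 6 WT mice for 10 genes (0.131%), Sod1 among them, and below for 1 (0.0131%), Mxd4, a MYC antagonist.

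The junction and transporter genes of the barrier that were tested did not pass and had intervals within a 2-fold change. Cldn5 stood at 1221 to 1923 CPM in WT (median 1459) and 953 to 1754 CPM in SOD1G93A mice (median 1384), with a log2 fold change of −0.11 (95% interval −0.45 to 0.24), which was 0.055 without the pool A SOD1G93A male and 0.034 without the pool A WT male. Tjp1, which anchors tight junctions to actin, had −0.03 (−0.34 to 0.28). The smallest p among junction genes was that of Ctnnd1, with −0.53 (−0.98 to −0.08, FDR = 0.980 in limma). Of the 11 junction genes, 4 lay above 0 and 7 below. Slc2a1, the glucose transporter of the barrier, stood at 1590.0 to 2431 CPM (median 2053) and 1470.4 to 2541 CPM (median 2004), with a log2 fold change of −0.05 (−0.36 to 0.26), and Slco1c1, the thyroid hormone carrier, had 0.06 (−0.24 to 0.35). Of 19 barrier transporters tested, 0 passed, and the intervals of all 19 lay within a 2-fold change in either direction, as did those of all 11 junction genes tested, against 83.6% of all genes. The smallest p among transporters was that of Slc7a5, the large neutral amino acid carrier, with 699 to 921 CPM in WT (median 819.7), 566 to 824 CPM in SOD1G93A mice (median 624) and a log2 fold change of −0.35 ± 0.14 (SE, FDR = 0.980 in limma). Abcg2 was higher in SOD1G93A in 0 of 6 pairs, with −0.28 (−0.57 to 0.02). Of the 19 transporters, 10 lay above 0 and 9 below. Differences of under 2-fold, in either direction, remain possible for these genes.

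**Figure D4:**
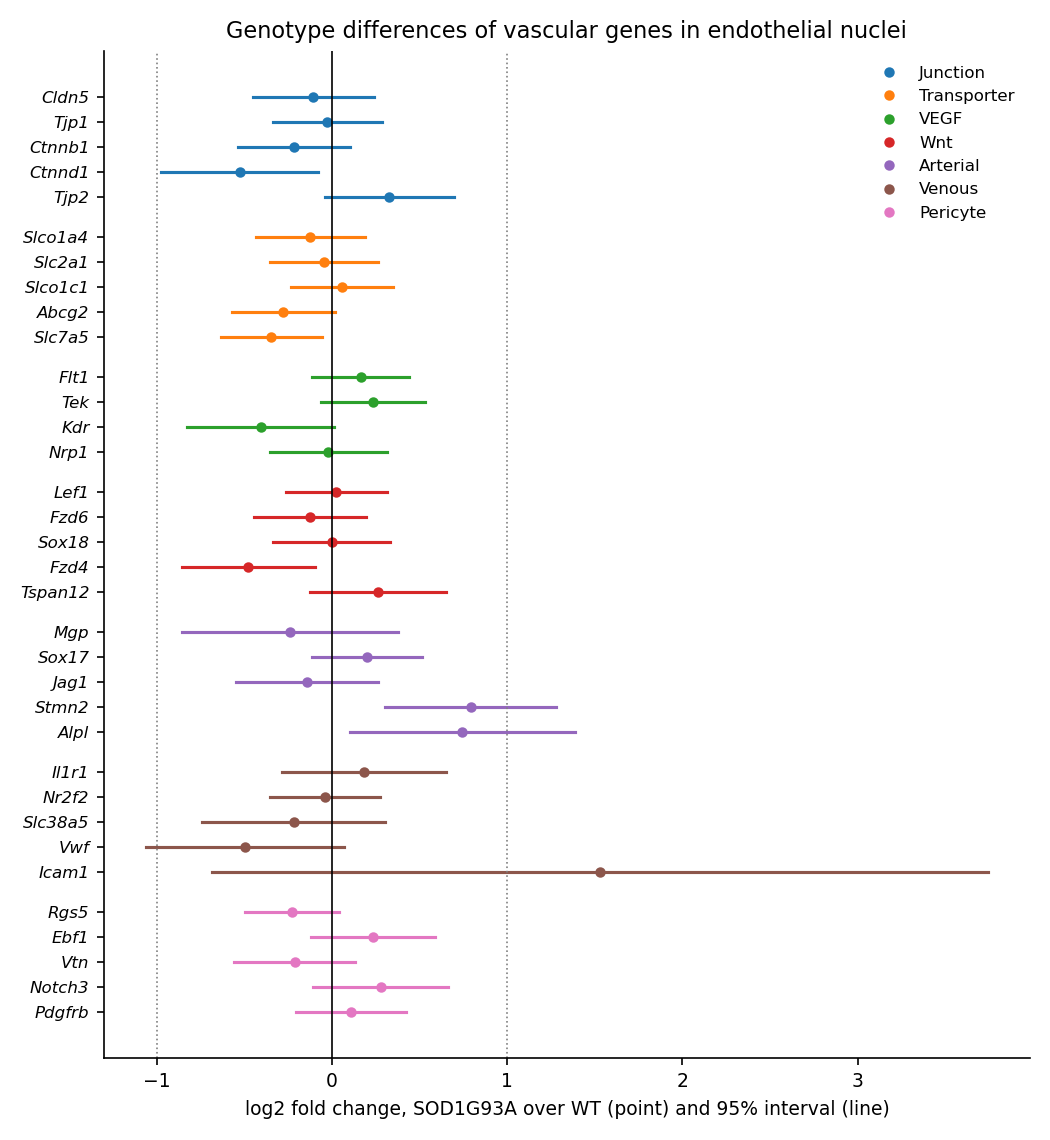
Points are log2 fold changes of SOD1G93A over WT and lines their 95% intervals from limma-voom for members of 7 gene lists named by level or by small p, with dotted lines at a 2-fold change. Intervals of the transporters and of Cldn5 lay within the dotted lines, while that of Icam1 ran from −0.68 to 3.74.

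Signalling of the vessel wall gave the same count. Among 8 genes tested of VEGF, angiopoietin and apelin signalling, 0 passed, with a median log2 fold change of 0.06 against −0.01 over all genes. Flt1 stood at 4283 to 5234 CPM in WT (median 4572) and 3886 to 5738 CPM in SOD1G93A mice (median 5432), with 0.16 (−0.11 to 0.44), and −0.043 in nuclei with at most 2 pericyte markers. The latter were 185 nuclei, with 4 to 31 per mouse. Tek, the angiopoietin receptor, had 0.23 (−0.06 to 0.53) and Kdr, the main VEGF receptor, −0.41 (−0.83 to 0.01). Of 18 Wnt and barrier transcription factor genes 0 passed, and Fzd4, the receptor for the Norrin signal that keeps the barrier, was lower in SOD1G93A in all 6 pairs, at 182 to 263 CPM in WT (median 210.2) and 99.9 to 205 CPM in SOD1G93A mice (median 162), with −0.48 ± 0.18 (SE, FDR = 0.980 in limma). Fzd4 was named by its small p. Pair counts of single genes are descriptions, and the share of all genes with 6 of 6 is not given. Of 11 Notch genes 0 passed, with Dll4, the arterial ligand, lowest at −0.79 ± 0.37. In that list 6 genes lay below 0 and 5 above, up to 0.44. Of 14 TGF-beta and BMP genes 0 passed, with Acvrl1, an endothelial BMP receptor, at −0.20 ± 0.15.

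Vessel segments and the pericyte genes did not pass either. Of 13 arterial genes tested the median log2 fold change was 0.20, with Sox17, an arterial transcription factor, at 0.20 (−0.12 to 0.51), Alpl, an alkaline phosphatase, at 0.74 (0.10 to 1.38) and Stmn2, a microtubule protein best known from neurons, at 0.79 (0.31 to 1.28), both with FDR = 0.980 in limma. In this list 8 genes lay above 0 and 5 below, the lowest being Dll4 at −0.79. Of 7 venous genes the median was 0.18, with Vwf, the clotting factor carrier, at −0.50 (−1.06 to 0.07). The 7 capillary genes had a median of −0.06. The pericyte list had a median of 0.03 over 13 genes, and the intervals of all 13 lay within 2-fold. Pdgfrb stood at 156 to 271 CPM in WT (median 176) and 172 to 233 CPM in SOD1G93A mice (median 198), with 0.11 (−0.21 to 0.42). Vtn had −0.21 (−0.56 to 0.13), and Rgs5 was lower in SOD1G93A in all 6 pairs, with −0.23 (−0.50 to 0.04). Summed over the 6 pericyte markers, WT mice stood at 5336 to 6479 CPM (mean 5769.9 ± 417 SD, n = 6) and SOD1G93A mice at 4502.5 to 5553 CPM (mean 5026 ± 409 SD, n = 6), and the ranges overlapped. Within the pairs of the same sex and pool this sum was lower in SOD1G93A in 6 of 6, which is a description and was not tested, and Rgs5 makes up most of it. The sum of the whole pericyte list of 15 genes was lower in 4 of 6. Summed counts alone do not separate fewer nuclei with pericyte genes from less RNA per such nucleus. After thinning, nuclei with at least 4 pericyte markers averaged 52.1% in WT and 54.2% in SOD1G93A mice. The part of either in this sum was not tested.

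Matrix, inflammatory, coagulation and antioxidant lists had 0 genes past the threshold. Medians were 0.01 for 12 basement membrane genes, 0.08 for 14 inflammatory genes, −0.03 for 11 genes of coagulation and vascular tone, −0.17 for 7 genes of caveolae and transcytosis, 0.07 for 8 genes of pericyte recruitment and −0.14 for 12 antioxidant genes. The collagen subunits Col4a1 and Col4a2 had 0.14 (−0.18 to 0.45) and 0.02 (−0.34 to 0.39). Nos3, the endothelial nitric oxide synthase, stood at 137 to 209 CPM in WT (median 171) and 188 to 303 CPM in SOD1G93A mice (median 206) and was higher in 6 of 6 pairs, with 0.40 ± 0.15 (SE, FDR = 0.980 in limma). Thbd, the thrombin receptor thrombomodulin, was also higher in 6 of 6 pairs, with 0.39 ± 0.18, but stood at −0.0610 in nuclei with at most 2 pericyte markers. That last value rests on 185 nuclei, with 4 to 31 per mouse. Txnip, an inhibitor of thioredoxin, had −0.61 ± 0.21. In the antioxidant list, 10 of 12 genes were below 0, as were 3934 of 7637 genes tested. The 10 clock genes tested had a median of −0.36, the farthest from 0 of the 20 lists, with 0 past the threshold, 6 genes below 0 and 4 above. Their log2 fold changes ran from −1.29 to 1.06. Dbp, an output factor of the clock, stood at 21.9 to 180.1 CPM in WT (median 47.0) and 5.13 to 57.1 CPM in SOD1G93A mice (median 31.2), which overlapped, with −1.29 ± 0.49 (SE, FDR = 0.980 in limma). It passed when the pool C female WT mouse was left out. Hlf was lower in SOD1G93A in 6 of 6 pairs, with −0.51 ± 0.20 (FDR = 0.980 in limma).

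Of the genes with the smallest p, apart from Sod1, none had an FDR under 0.414 in limma. Rorb, a nuclear receptor, stood at 23.8 to 47.0 CPM in WT (median 37.5) and 46.4 to 94.5 CPM in SOD1G93A mice (median 79.8), with a log2 fold change of 1.08 ± 0.23 (SE). Flrt2, an adhesion protein that was lower in 6 of 6 pairs, had −0.69 ± 0.17. Dnm1l, which divides mitochondria, stood at 70.1 to 98.1 CPM in WT (median 82.7) and 105 to 148 CPM in SOD1G93A mice (median 127), without overlap, at 0.61 ± 0.17 (FDR = 0.949 in limma). Also among the 6 higher and 6 lower genes of smallest p were Stk39, Sox5 and Pced1b on the higher side and Htr2c, Rtl4, 8430408G22Rik and Ctgf on the lower. Summed over 4 markers, neuronal genes stood at 242 to 533 CPM in the endothelial nuclei of WT mice and 178 to 510.5 CPM in those of SOD1G93A mice, oligodendrocyte genes at 295 to 606 and 329 to 649.95 CPM, astrocyte genes at 332 to 467 and 268 to 680.3 CPM, and 4 microglial genes at 8.69 to 29.1 and 6.74 to 44.4 CPM. Their part in single genes was not tested.

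The genotype effects of the sexes did not differ by a called gene. The test of the difference, male effect minus female effect, passed for 0 of 7637 genes in limma, with 214 genes (2.8%) at an unadjusted p under 0.05, and for 0 genes in edgeR (221) and DESeq2 (78).

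The sexes differed in 10 genes outside X and Y (0.136% of 7368), with 6 higher (0.0814%) and 4 lower (0.0543%) in females, while 411 genes (5.58%) had an unadjusted p under 0.05. Of the clock list, 3 of 10 genes tested were higher, Hlf, Tef and Nr1d1, which are output factors of the clock and its repressor REV-ERBα. In that list 6 genes had a positive and 4 a negative log2 fold change, and those of Arntl and Npas2, activators of the clock, were −0.96 and −1.69 and did not pass (FDR = 0.598 and 0.627 in limma). Of the heat shock list, 3 of 10 were lower, Hspa1a, Hspa1b and Hsph1, chaperones of the stress response, and all 10 had a negative log2 fold change. The others were Tecrl, an enzyme related to fatty acid elongation, and the predicted genes Gm609 and Gm16070 on the higher side, and Ier3, an early response gene, on the lower. Reads of Hspa1a (chr17:34969190-34972156, GRCm38) and Hspa1b, near-identical neighbours, may be split uncertainly by the counting.

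Among the called clock genes, females lay above males in 2 or 3 of the 3 pools. Nr1d1 stood at 53.7 to 138 CPM in females (median 101) and 19.9 to 78.7 CPM in males (median 43.6), with a log2 fold change of 1.19 ± 0.24 (SE, FDR = 0.0361 in limma), and females lay above males within each of the 3 pools. Hlf stood at 107 to 351 CPM (median 161) and 66.3 to 107 CPM (median 90.6), with 0.99 ± 0.20, and Tef at 49.97 to 134 CPM (median 85.0) and 20.1 to 56.0 CPM (median 33.0), with 1.26 ± 0.26. For both, the ranges overlapped in pool B. Gm16070 was the only one of the 10 without overlap over all mice, at 57.4 to 120.4 CPM in females and 14.0 to 55.3 CPM in males. The share of all genes without such overlap is not given. Col4a1, which was not called (FDR = 0.477 in limma), did not overlap either, at 274 to 389 CPM in females and 416 to 650 CPM in males.

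Heat shock genes differed mainly in pools A and B. Hspa1a stood at 64.1 to 112 CPM in the males of pool A and 58.5 to 100.03 CPM in those of pool B, but at 6.03 and 9.35 CPM in the males of pool C, while females ranged from 0 to 10.7 CPM. The fitted log2 fold change was −3.60 ± 0.63 (SE, FDR = 0.0108 in limma), and that of Hspa1b −2.97 ± 0.52. Summed over the list of 10 genes, males stood at 3788 to 5041 CPM in pool A and 4601 to 5127 CPM in pool B against 1269.8 to 2303 and 2232.7 to 2732 CPM in females, and in pool C at 1225 to 1341 CPM in males and 1211 to 1353 CPM in females, which overlapped. The order in which mice were handled is not given in the sources used here, so that handling within a pool and sex cannot be told apart. Within each of the 3 pools, 4 of the 10 genes were separate in the same direction, namely Gm16070, Nr1d1, Hspa1a and Hspa1b, a comparison made after the calls were known. The 10 genes had been called by the same difference of the sexes, so this separation is a description. The share of all genes separate in this way is not given. In pool C, Hspa1a stood at 0 to 1.99 CPM in females and 6.03 to 9.35 CPM in males. Hspa1b stood there at 1.99 to 3.17 and 4.02 to 9.35 CPM. For these 2 genes the separation in pool C rests on a few UMIs per mouse. Without the pool term limma called 0 genes between the sexes (352 at an unadjusted p under 0.05), and with a minimum count of 30 it also called 0 (246 at an unadjusted p under 0.05, of 3497 genes tested). The count also rested on single mice: it was 2 without the pool B and 3 without the pool A SOD1G93A male, 3 without the pool A WT male, 3 without the pool A and 27 without the pool C WT female, and 4 without the pool B and 3 without the pool C SOD1G93A female.

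**Figure D5:**
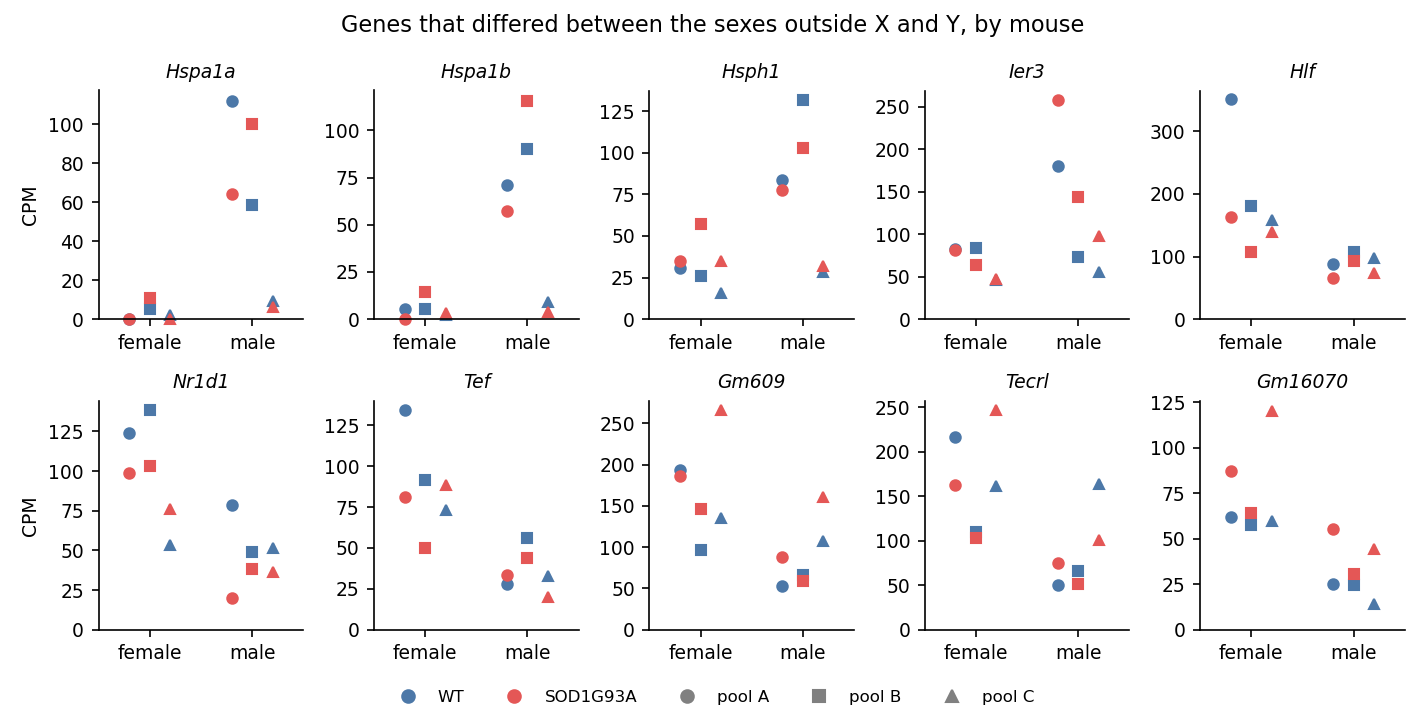
CPM (vertical axes, from 0) of the 10 genes outside X and Y called between the sexes, 1 point per mouse, by genotype (colour) and pool (shape). The males of pool C lay near the females for Hspa1a, Hspa1b and Hsph1, with 6.03 and 9.35 CPM for Hspa1a, whereas Nr1d1 and Gm16070 were higher in females within every pool.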

How the data were processed

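Nuclei of the lumbar cord of 12 mice were sequenced in 3 pools, each with 1 mouse of each sex and genotype. Per the labels and the study's methods, the authors sequenced 10x v3 libraries, aligned them to mm10 and counted with Cell Ranger 3.1 (the submitters' notes also name bcl2fastq 2.20.0.422, STAR 2.5.1b, Seurat 4.0.3 and R 4.0.3). They assigned nuclei to mice by hashtag, filtered them on genes and mitochondrial share, discarded ambiguous hashtags and mitochondrial genes, and named cell types from clusters. The deposited table held raw UMI counts per gene and nucleus, and a deposited table of nuclei gave the mouse, the refined cell type and the mitochondrial percent of each. The deposited sctransform values were not used. Retained nuclei had at least 414 genes and at most 9.99% mitochondrial counts. Across pools, 15 barcodes occurred more than once, of which 1 belonged to an endothelial nucleus.

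Counts of endothelial nuclei were summed per mouse, filtered with filterByExpr (minimum count 10), normalized by TMMwsp and fitted with limma 3.58.1 (voom, robust eBayes) under R 4.3.3, with Benjamini-Hochberg FDR under 0.1. The design had the 4 sex and genotype groups and the pool, because the labels call the pool a batch. Deviations from the mean of the sex and genotype group had a median correlation of 0.0649 between mice sharing a pool (7 of 18 pairs above 0.1). Between mice of different pools and groups it was −0.0458. Each group had 1 mouse per pool, so these values are tied and the latter is no independent baseline. edgeR 4.0.16 and DESeq2 1.42.0 were alternatives, and edgeR's quasi-likelihood test compared shares of nuclei (FDR under 0.05). Other values used Python 3.11.15, numpy 2.4.6, pandas 2.3.3 and scipy 1.17.1. The fit was tested on simulated data with 200 changed genes of 7637. Each mouse is 1 sample, with 180221 to 529083 endothelial UMIs, and the binomial interval and the limit for a count of 0 cover counting error only, while limma's intervals rest on the spread between mice.

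The members, gene lists and limits were chosen with earlier results of these data known. Named were Flt1, Cldn5 and Pdgfrb, every gene past FDR 0.1, the 6 higher and 6 lower genes of smallest genotype p, of each list the 3 members of highest CPM and the 2 of smallest p, and the 15 genes with the largest ratio to other cell types. Mxd4, Hbb-bs, Arntl, Npas2, Acta2, Vcam1, Kcnj8, Abcc9, Gja5, Sele, Selp, Sema3g, Vegfc, Mfsd2a, Tfrc, Atp13a5, Slc38a11, Slc6a20a and Il34 were named after their values were seen, and the motif, the limits of 2 and 4 pericyte markers and the comparison within pools were chosen then too. One gene that the rule names is not reported here. Because no nucleus met the pericyte rule, the fit on those nuclei could not be made, and the fit without them equalled that of all nuclei.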

Additional observations from a re-analysis of the deposited data

Results flagged for a closer look

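Dixon's test was run in groups of 6 mice on 104 sets of values of single genes, lists and markers, and marked 12, where chance alone marks about 1 in 20. CPM of single genes are scaled by TMMwsp, and sums over lists and markers are plain. In each case 1 mouse stood apart from the others of its genotype. The male SOD1G93A mouse of pool A gave 5 of them. Its smooth muscle list summed to 673 CPM (others 177 to 303), 4 smooth muscle markers to 291 CPM (others 17.5 to 58.8), the venous list to 1633 CPM (others 521 to 879) and 4 fibroblast markers to 101 CPM (others 17.6 to 43.8). Its barrier transporters summed lowest, to 14208.5 CPM (others 17258.5 to 18590.2). These sums are shares of the same UMIs, and the reason for the low transporter sum was not tested.

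The female SOD1G93A mouse of pool A was lowest in Flt1, at 3886 CPM (others 5344 to 5738), and in the list of VEGF, angiopoietin and apelin signalling, of which Flt1 is a member, at 5232 CPM (others 6616 to 7395). Pdgfrb was highest in the male WT mouse of pool C, at 271 CPM (others 156 to 188). Among genes called between the sexes, Hlf was highest in the female WT mouse of pool A, at 351 CPM (others 88.8 to 180.1), and Ier3 in the male WT mouse of pool A, at 180.1 CPM (others 45.7 to 83.5). Red blood cell markers summed to 1149 CPM in the male SOD1G93A mouse of pool C (others 0 to 5.88) and to 308 CPM in the male WT mouse of pool C (others 0 to 17.0). The causes were not tested.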

How the results depend on the processing

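Sod1 was the 1 gene called between genotypes under TMM factors, non-robust eBayes, no pool term, no filter, a minimum count of 30, edgeR and DESeq2, and leaving out 1 mouse gave 1 to 5 genes; the same holds for nuclei outside the pericyte part, which are all nuclei. Genes called between the sexes numbered 10 in limma and edgeR and 9 in DESeq2, but 0 without the pool term, 0 at a minimum count of 30 (246 at an unadjusted p under 0.05), 18 without a filter and 2 to 27 when 1 mouse was left out. In alternatives added after seeing the data, nuclei with 2 or fewer pericyte markers gave 0 (150 at an unadjusted p under 0.05, with 2312 genes tested) and nuclei with 4 or more gave 8. The difference of genotype effects between the sexes gave 0 genes, except for 2 without a filter (Gm16036 and Myo3b). The log2 fold change of the endothelial share was 0.80 with TMM factors (FDR = 0.0565 in edgeR), 0.53 without the pool block (FDR = 0.214) and 0.28 to 0.70 when 1 mouse was left out, and passed in none. Asking for more UMIs of Pdgfrb than of Flt1 gave a mean difference of −0.617 percentage points from 1 nucleus.

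Sign changes occurred in genes that were not called: when 1 mouse was left out, the log2 fold change ran from −0.35 to 0.015 for Cavin2, from −0.21 to 0.055 for Cldn5 and from −0.052 to 0.23 for Mylk, and in the 185 nuclei with 2 or fewer pericyte markers it was −0.043 for Flt1 and −0.0610 for Thbd. Of 1260 alternative values of 59 single genes, 1169 kept their direction and side of the threshold, 82 lost a call, 3 gained one and these 6 changed sign. Of 439 list medians, 424 moved by less than the median standard error of the list's genes in the main genotype fit. The causes were not tested. With 21 to 65 nuclei per mouse, the counts limit genes of low level, segments of the vessel tree and any nuclei rarer than the limit given for the pericyte rule.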
